A study of Mus musculus with 18 samples.

Results

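The 7 hippocampal subfield marker genes described here are Prox1, C1ql2, Dsp, Wfs1, Fibcd1, Zbtb20 and Amigo2. Prox1, C1ql2 and Dsp mark the dentate gyrus, and the others are grouped as CA field genes. Of these, Zbtb20 is also made in dentate granule cells. All 7 members were found by gene symbol, and each matched 1 of the 24062 lines of a table of RNA sequencing counts. The study asked how gene expression differs between C57BL/6 mice heterozygous for Chd2, a chromatin remodeller, and wild-type mice. The heterozygous groups (Chd2+/-, HET) and the wild-type groups (WT) were each sampled in hippocampus at P45, in cortex at E13.5 and in the medial ganglionic eminence (MGE) at E13.5. Each of the 6 groups held 3 libraries, made from Trizol total RNA with poly(A) selection, 18 libraries in all. The labels name no other allele or agent. They leave unsaid if each library came from its own animal, so the spread that the p-values rest on may be technical.

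The hippocampus passes its input from the granule cells of the dentate gyrus along the mossy fibres to CA3, and from there to CA1, with CA2 between them. Each field is built of 1 main type of excitatory neuron with its own set of expressed genes, so a few genes serve to tell the fields apart in sections and in bulk RNA. In bulk RNA, fewer cells of a type and less RNA per cell cannot be told apart.

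Total counts were 26841671 to 38802765 per library. Chd2 was at 63.8, 66.6 and 65.6 CPM (counts scaled to library size by the trimmed mean of M values, TMM) in HET hippocampus, against 73.4, 69.8 and 78.1 CPM in WT hippocampus. Its log2 fold change was -0.17 in hippocampus, -0.22 in cortex and -0.24 in MGE, and it missed the threshold in each (edgeR quasi-likelihood test, Benjamini-Hochberg adjusted p = 0.191, 0.578 and 0.980), while the 3 HET libraries lay below the 3 WT libraries in every tissue. All 6 hippocampal libraries had Xist at 518 to 672 CPM and 4 Y-linked genes summing to at most 0.104 CPM. In MGE the same 4 genes together reached 212 to 259.6 CPM in HET libraries and at most 0.0973 CPM in WT libraries, so sex and genotype cannot be told apart there. In cortex they were high in HET 1, HET 3 and WT 1. The excitatory neuron gene Slc17a7 and the myelin gene Mbp averaged 1958 and 4556 CPM in HET hippocampus and 2045 and 3926 CPM in WT hippocampus, against at most 67.0 and 42.7 CPM in any embryonic group.

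C1ql2 and Fibcd1 are the members whose level differed between genotypes in hippocampus, and the sequence just before the start of each is shown to place them in the genome. C1ql2 lies on the plus strand of mouse chromosome 1 at 120340582 to 120343174 (GRCm38, GENCODE M21), and Fibcd1 on the minus strand of chromosome 2 at 31813290 to 31846005. Each run below gives the 250 bases upstream of the RefSeq start (GRCm38.p6), 5′ to 3′ on the strand of the gene, and capitals mark each CpG. The C1ql2 run is chr1:120340332-120340581 and the Fibcd1 run is chr2:31846006-31846255.
C1ql2: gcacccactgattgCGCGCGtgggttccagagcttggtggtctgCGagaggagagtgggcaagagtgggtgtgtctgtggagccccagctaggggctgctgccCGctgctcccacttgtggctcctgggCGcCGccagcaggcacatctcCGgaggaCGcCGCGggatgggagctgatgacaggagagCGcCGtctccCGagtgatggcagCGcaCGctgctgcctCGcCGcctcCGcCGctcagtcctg
Fibcd1: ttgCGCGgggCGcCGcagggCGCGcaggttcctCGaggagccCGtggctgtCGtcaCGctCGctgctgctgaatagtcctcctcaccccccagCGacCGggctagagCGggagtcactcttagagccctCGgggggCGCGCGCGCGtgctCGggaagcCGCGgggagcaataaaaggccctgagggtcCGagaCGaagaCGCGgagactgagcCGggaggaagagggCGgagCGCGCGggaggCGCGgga
The C1ql2 run held 20 CpG and the Fibcd1 run 34, against a median of 6 over 32841 RefSeq promoters, of which 82.0% had fewer than C1ql2 and 96.5% fewer than Fibcd1. At least 1 CG was in 92.1% of those promoters. The E-box CAGATG, searched on both strands, was in neither run, and 14.4% of all promoters held it.

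The other members lie elsewhere in the genome. Prox1 is at chr1:190118035-190170714 (minus strand), Dsp at chr13:38151294-38198577 (plus), Wfs1 at chr5:36966104-36989205 (minus), Zbtb20 at chr16:42875881-43642602 (plus) and Amigo2 at chr15:97244125-97247287 (minus). All 7 are protein-coding, and Amigo2 is the member annotated as 1 exon block. Some of their exon bases also belong to other genes. Zbtb20 shares 83 bases on its own strand with Mir568, which had 120 to 253 counts in the hippocampal libraries, and Amigo2 shares 58 bases with Pced1b on the opposite strand, which had 130 to 158. Dsp shares 499 bases with Gm10129 and Prox1 shares 133 with Prox1os, both on the opposite strand. The strand setting of the counting is not given in the sources used here, so reads in these overlaps cannot be assigned.

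All 7 members stood higher in the P45 hippocampus than in the E13.5 cortex, in both genotypes. Against E13.5 MGE all 7 were higher in WT and 6 of 7 in HET, Zbtb20 being the exception. Over the 16125 genes tested, 39.4% and 38.6% were called higher in hippocampus than in cortex in HET and WT (edgeR quasi-likelihood test, adjusted p under 0.05). Against MGE the shares were 41.2% and 40.8%. The members were listed as hippocampal markers, so their direction is part of that choice. Hippocampus differs from both other tissues in age as well, and tissue and age cannot be told apart. In HET, hippocampus had Xist and almost no Y-linked counts, and MGE the reverse, so in the HET contrast with MGE sex cannot be told apart from tissue either. WT hippocampus and WT MGE both had Xist and almost no Y-linked counts, though Xist averaged 576 CPM in WT hippocampus and 1798 CPM in WT MGE. Y-linked genes were high in cortex HET 1, HET 3 and WT 1, so sex was not matched between hippocampus and cortex in either genotype.

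**Figure D1:**
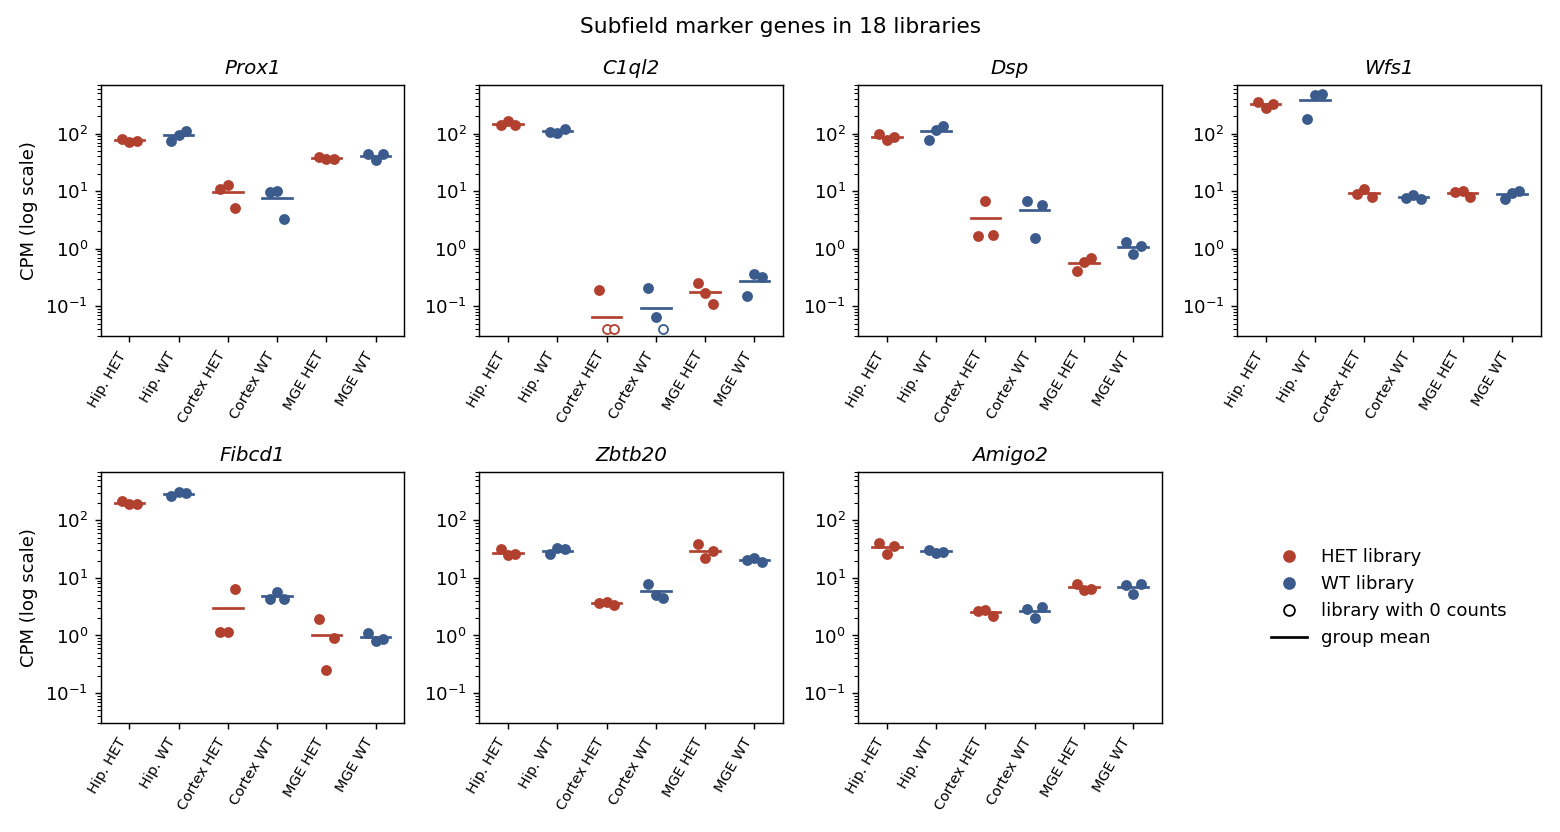
TMM-scaled CPM (log axis) of the 7 members in the 18 libraries, by tissue (Hip., P45 hippocampus; cortex and MGE at E13.5) and genotype. Points are libraries, lines are means of 3 libraries, and open points are libraries with 0 counts. C1ql2 reaches 102 to 167 CPM in hippocampus and at most 0.357 CPM in the embryonic libraries, whereas Zbtb20 in HET MGE, at 22.0 to 38.4 CPM, overlaps the hippocampal libraries and in WT MGE, at 19.0 to 21.9 CPM, lies below them.

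C1ql2, a secreted protein of the C1q family found at mossy fibre synapses, was near 0 counts in the embryonic libraries. Its 3 cortex libraries held 6, 0 and 0 counts in HET and 7, 2 and 0 in WT, and the limit that 0 counts allow (3 counts) was 0.103, 0.0837 and 0.108 CPM in HET 2, HET 3 and WT 3. MGE libraries held 4 to 9 counts in HET and 6 to 11 in WT. Hippocampal libraries held 3948 to 4885 counts in HET and 3143 to 3857 in WT, so every hippocampal library was far above every embryonic one. The fitted log2 difference to cortex (11.16 in HET, 10.11 in WT) depends on the prior count at so few counts.

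Prox1, a homeobox transcription factor that sets granule cell identity, had 3 separate levels. In HET it averaged 76.2 ± 5.60 CPM in hippocampus, 37.1 ± 1.33 CPM in MGE and 9.55 ± 4.01 CPM in cortex (SD, n = 3 each). In WT the means were 94.0 ± 19.1, 40.8 ± 5.44 and 7.68 ± 3.78 CPM. No library of 1 tissue overlapped another tissue, while HET and WT overlapped within each. Its log2 fold change of hippocampus over cortex was 3.02 (SE 0.33) in HET and 3.63 (SE 0.34) in WT. Over MGE it was 1.07 (SE 0.30) in HET and 1.22 (SE 0.30) in WT, with adjusted p of 0.00393 and 0.00148 (edgeR quasi-likelihood test).

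Dsp (desmoplakin), which anchors intermediate filaments at desmosomes, had 88.0 ± 10.7 CPM in HET hippocampus and 109 ± 31.2 CPM in WT hippocampus. In the other tissues it was at 1.66, 6.68 and 1.76 CPM in HET cortex, 6.76, 1.52 and 5.85 CPM in WT cortex, and 0.416 to 1.33 CPM in MGE. In cortex, HET 2, WT 1 and WT 3 were above the other libraries, so the genotypes overlapped. The summed level of 7 genes of the choroid plexus, an epithelium of the dorsal midline, varied as well, at 13.7, 259 and 444 CPM in HET cortex and 1568, 5.94 and 1209.6 CPM in WT cortex. Its part in the Dsp level was not tested.

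Wfs1, the endoplasmic reticulum membrane protein wolframin and a CA1 marker, had 322 ± 37.2 CPM in HET hippocampus and 377 ± 170.4 CPM in WT hippocampus (SD, n = 3 each). All 12 embryonic libraries lay between 7.34 and 10.7 CPM, and none of the 4 embryonic groups was separate from its neighbour in the order of levels. Its log2 fold change of hippocampus over cortex was 5.14 (SE 0.30) in HET and 5.60 (SE 0.31) in WT.

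Fibcd1, a transmembrane receptor for acetylated sugars with a fibrinogen-like domain, marks CA1. Its 198 ± 13.02 CPM in HET hippocampus and 289.7 ± 25.5 CPM in WT hippocampus stood apart from the embryonic libraries, which reached at most 6.53 CPM. The order of the means was WT hippocampus, HET hippocampus, WT cortex, HET cortex, HET MGE and WT MGE, and neighbours among the embryonic groups overlapped. Hippocampus over MGE gave a log2 fold change of 7.61 (SE 0.57) in HET and 8.27 (SE 0.59) in WT.

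Amigo2, a leucine-rich repeat adhesion protein, marks CA2 and the CA3 cells next to it. It averaged 34.0 ± 6.91 CPM in HET hippocampus and 28.8 ± 2.09 CPM in WT hippocampus. MGE followed with 6.87 ± 0.908 CPM in HET and 6.93 ± 1.46 CPM in WT, and cortex with 2.56 ± 0.318 CPM in HET and 2.69 ± 0.581 CPM in WT. The 3 tissues did not overlap, and the genotypes overlapped within each.

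Zbtb20, a zinc finger repressor needed for CA1 identity that is also made in dentate granule cells and astrocytes, was the member with the least difference between hippocampus and MGE. It averaged 27.4 ± 3.70 CPM in HET hippocampus and 29.9 ± 3.72 CPM in WT hippocampus, against 29.8 ± 8.25 CPM in HET MGE and 20.6 ± 1.48 CPM in WT MGE. HET libraries of the 2 tissues overlapped, and the log2 fold change in HET was -0.09 (SE 0.19, adjusted p = 0.672, edgeR quasi-likelihood test). In WT it was 0.56 (SE 0.19, adjusted p = 0.0135), and this call was lost without MGE WT 3 (adjusted p = 0.0504) or without hippocampus WT 2 (adjusted p = 0.0527). Cortex was lower, with means of 3.60 ± 0.203 CPM in HET and 5.81 ± 1.79 CPM in WT.

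Levels of different genes were compared per kilobase of annotated exon. Mean levels in hippocampus were 85.1 CPM per kb in HET and 99.6 in WT for Wfs1, 74.5 in HET and 55.2 in WT for C1ql2, and 41.7 in HET and 61.0 in WT for Fibcd1. Prox1, Dsp and Amigo2 lay between 9.08 and 10.8 CPM per kb in HET and between 9.10 and 11.3 in WT. Zbtb20, whose annotated exons cover 30.7 kb, was lowest at 0.892 CPM per kb in HET and 0.974 in WT. C1ql2 therefore stood above Fibcd1 in HET hippocampus, and Fibcd1 stood above C1ql2 in WT hippocampus, by the mean level per kilobase. By CPM alone, Fibcd1 was above C1ql2 in every hippocampal library. The order in HET thus rests on the exon lengths, which take in every annotated exon. The annotation used for counting is not given, so orders per kilobase, that of Zbtb20 included, may not hold for the transcripts expressed.

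In P45 hippocampus, 2 of the 7 members differed between genotypes. C1ql2 rose and Fibcd1 fell in HET, while Prox1, Dsp, Wfs1, Zbtb20 and Amigo2 did not pass the test. Over the 15283 genes tested, 1.07% were called, 0.262% higher and 0.811% lower (edgeR quasi-likelihood test, adjusted p under 0.05). The members were chosen with earlier results of these data known, so 2 of 7 beside this share is no test of the set. The median log2 fold change was -0.22 over the 7 members and 0.0047 over all genes tested, with 2 members above zero and 5 below.

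C1ql2 had 140.4, 167 and 139.9 CPM in HET hippocampus, against 107, 102 and 121 CPM in WT hippocampus. The 3 HET libraries were all above the 3 WT libraries. Its log2 fold change was 0.44 (SE 0.08), a level 1.35 times that of WT, with an adjusted p of 0.0293 (edgeR quasi-likelihood test). The call was lost without HET 3 (0.48, adjusted p = 0.0810) and without WT 2 (0.39, adjusted p = 0.150), with the same direction. It was also lost with the replicate block (adjusted p = 0.0883) and with a covariate for Y-linked expression (adjusted p = 0.0725). Y-linked genes summed to at most 0.104 CPM in every hippocampal library, so the covariate cannot show an effect of sex here. The replicate numbers were not taken as pairs.

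Fibcd1 had 213, 189 and 192 CPM in HET hippocampus, against 261, 310.4 and 297 CPM in WT hippocampus. Here the 3 HET libraries were all below the 3 WT libraries. Its log2 fold change was -0.55 (SE 0.07), which puts WT at 1.46 times HET, with an adjusted p of 0.00482 (edgeR quasi-likelihood test). It missed the threshold without HET 3 (-0.52, adjusted p = 0.0621) and passed when any other hippocampal library was left out. Groups that do not overlap were seen in 20.8% of all genes tested, 9.11% with HET higher and 11.7% with HET lower. In a single fit of all 18 libraries, neither gene passed (adjusted p = 0.948 for C1ql2 and 1.00 for Fibcd1).

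Prox1 and Dsp, the other dentate genes, pointed the other way from C1ql2. Prox1 had 82.1, 70.9 and 75.5 CPM in HET hippocampus and 74.5, 94.7 and 113 CPM in WT hippocampus, giving -0.30 on the log2 scale (SE 0.14, adjusted p = 0.355). Dsp had 98.9, 77.5 and 87.4 CPM in HET and 76.1, 114 and 138 CPM in WT, giving -0.31 (SE 0.23, adjusted p = 0.592). For Prox1, WT 1 lay among the HET libraries, and for Dsp it lay just below them, while WT 2 and WT 3 were above all HET libraries in both. None of these differences passed edgeR's quasi-likelihood test.

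Among the CA genes, Wfs1 had the widest spread. It had 355, 282 and 331 CPM in HET hippocampus and 181, 470.3 and 481 CPM in WT hippocampus, so WT 1 was the lowest of the 6 libraries and the other two WT libraries were the highest. Its log2 fold change was -0.22 (SE 0.43, 95% interval -1.06 to 0.61, adjusted p = 0.859, edgeR quasi-likelihood test). Zbtb20 had 31.7, 24.9 and 25.6 CPM in HET and 25.7, 32.6 and 31.4 CPM in WT, a log2 fold change of -0.12 (95% interval -0.34 to 0.09). Amigo2 had 40.1, 26.5 and 35.5 CPM in HET and 31.0, 26.9 and 28.5 CPM in WT, a log2 fold change of 0.24 (95% interval -0.02 to 0.51). For both genes the HET and WT libraries overlapped. A p that misses the threshold does not show that these levels were equal.

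**Figure D2:**
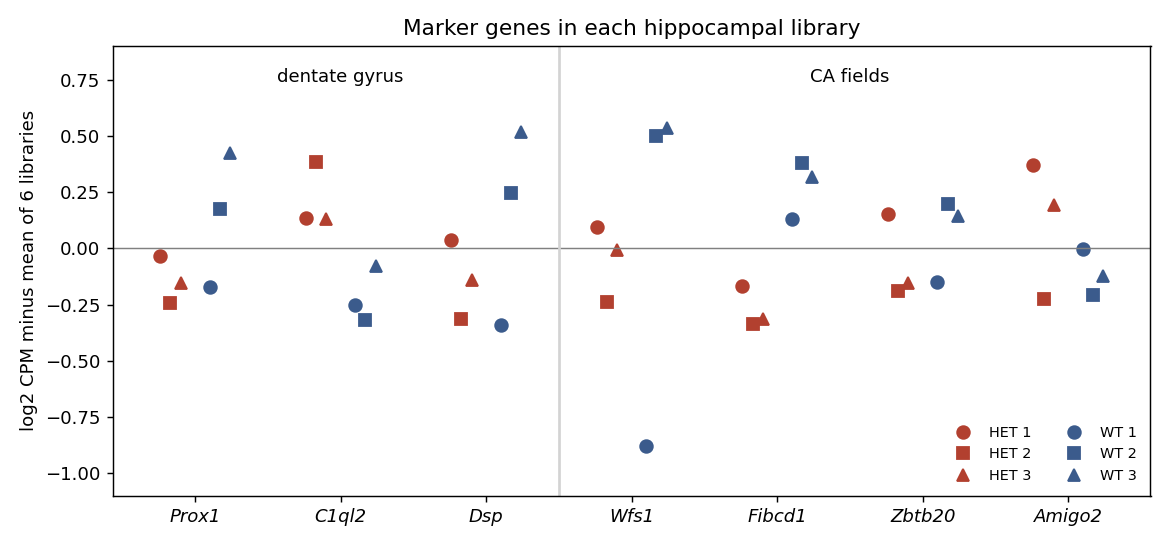
log2 CPM of each member in the 6 hippocampal libraries, relative to the mean of the 6; colour gives the genotype and shape the replicate number. C1ql2 has all 3 HET libraries above the WT libraries and Fibcd1 has them all below. WT 1 lies at -0.88 for Wfs1, apart from WT 2 and WT 3.

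The library WT 1 stood apart from the other WT libraries in several members. Relative to the mean of the 6 hippocampal libraries it was at -0.17 in Prox1, -0.34 in Dsp and -0.88 in Wfs1 on the log2 scale, where WT 2 and WT 3 were at 0.17 to 0.53. Leaving it out brought 5 of the 7 members past the threshold of edgeR's quasi-likelihood test. In all, 292 genes then passed, against 164 of 15283 with all 6 libraries. Prox1 then had a log2 fold change of -0.44 (adjusted p = 0.0175), Dsp -0.51 (adjusted p = 0.0498) and Wfs1 -0.55 (adjusted p = 0.00696). C1ql2 stayed at 0.42 (adjusted p = 0.0457) and Fibcd1 was at -0.61 (adjusted p = 6.67e-04). Without HET 3, no member passed, and 23 genes did. WT 1 was singled out by the levels of these same members, so the passes without it add no independent support.

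**Figure D3:**
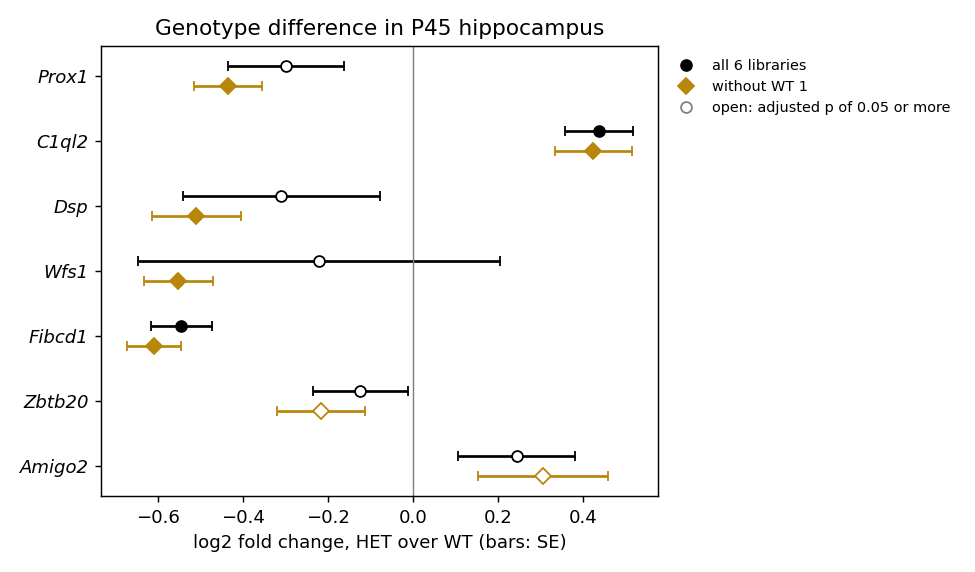
log2 fold change of HET over WT in P45 hippocampus with its standard error (bars), for all 6 libraries and without WT 1. Filled symbols have an adjusted p under 0.05. C1ql2 and Fibcd1 are past the threshold in both fits, and Prox1, Dsp and Wfs1 only without WT 1. WT 1 was singled out by its levels of these members, so the fit without it adds no independent support.

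Other genes moved with WT 1 and, in part, with HET 2, and Nov, Fezf2, Lct and Rprm were chosen after their values were seen. Nov, of the CA1 list, was at 32.8, 89.0 and 38.1 CPM in HET and 129.7, 76.1 and 52.6 CPM in WT. Fezf2, a transcription factor of deep-layer cortical neurons, was at 29.1, 46.0 and 27.3 CPM in HET and 68.3, 40.9 and 29.3 CPM in WT. Lct, of the dentate list, went the other way with 135, 97.6 and 135 CPM in HET and 66.3, 159 and 184 CPM in WT. In each case HET 2 and WT 1 were the extreme libraries of their own group, as they were for Wfs1. Of other neocortical genes, Tbr1 and Lamp5 did not follow Fezf2, while Rprm did. Tbr1 was at 55.1, 52.2 and 58.5 CPM in HET and 53.4, 53.5 and 63.3 CPM in WT. Lamp5 was at 41.5, 43.1 and 39.3 CPM in HET and 35.6, 39.0 and 45.2 CPM in WT. Rprm was at 19.3, 20.8 and 19.3 CPM in HET and 25.3, 16.5 and 16.3 CPM in WT. The part of these differences in the member levels was not tested.

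Ratios within a library show how the 2 called members moved against each other. The ratio of C1ql2 to Fibcd1 CPM was 0.660, 0.882 and 0.729 in HET hippocampus and 0.411, 0.330 and 0.408 in WT hippocampus, without overlap. The mean ratio in HET was 1.98 times that in WT, and 1.81 to 2.103 times with any 1 library left out. These are the 2 genes that passed the test, so the ratio adds no independent support. C1ql2 to Prox1 was 1.71, 2.35 and 1.85 in HET and 1.44, 1.08 and 1.07 in WT, also without overlap. Prox1 to Wfs1, a dentate to CA1 ratio without either called gene, was 0.231, 0.252 and 0.228 in HET and 0.412, 0.201 and 0.234 in WT, and its groups overlapped. Fibcd1 to Wfs1, a ratio chosen after seeing the values, was 0.600, 0.671 and 0.580 in HET and 1.45, 0.660 and 0.618 in WT, where WT 1 alone lay outside the range of the others.

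The mean levels of dentate and CA members did not separate the genotypes. The balance, the mean log2 CPM of the 3 dentate genes minus that of the 4 CA genes, was 0.08, 0.33 and 0.16 in HET and 0.11, -0.04 and 0.22 in WT. The means were 0.19 ± 0.13 in HET and 0.10 ± 0.13 in WT (SD, n = 3 each), and the libraries overlapped. Their difference of 0.09 ranged from 0.02 to 0.15 with 1 library left out. Within each set the members differed in direction, with C1ql2 above zero against Prox1 and Dsp, and Amigo2 above zero against Wfs1, Fibcd1 and Zbtb20. Zbtb20, counted here with the CA genes, is also made in dentate granule cells, so the balance does not cleanly part the fields.

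**Figure D4:**
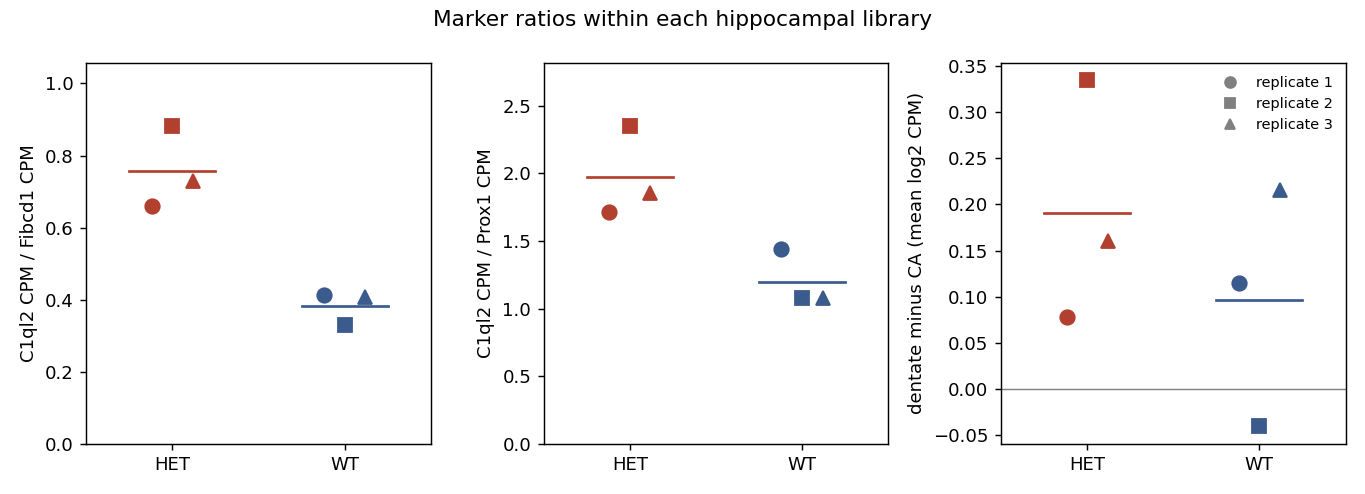
Ratio of C1ql2 to Fibcd1 CPM, ratio of C1ql2 to Prox1 CPM, and dentate minus CA balance (difference of mean log2 CPM) in the 3 HET and 3 WT hippocampal libraries. Points are libraries with shape giving the replicate number, and lines are means. Both ratios, which share the called gene C1ql2, separate the genotypes, and the balance does not.

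Further marker lists placed these members among other genes of the same fields. The lists were written from general knowledge, but with earlier results of these data known, so they add no independent support. Of 16 other dentate granule cell genes, none passed edgeR's test; 8 were above zero and 8 below, with a median log2 fold change of -0.0027. Their summed level was 1516 to 1579 CPM in HET, against 1228 to 1829 CPM in WT, with WT 1 lowest. The 3 most abundant were Fam163b (0.09, SE 0.21), Ahcyl2 (-0.02, SE 0.05) and Sema5a (0.14, SE 0.17). The 8 genes of newborn granule cells had none called and a median of -0.19, among them Neurod1 (-0.16, SE 0.08), Sox4 (-0.0031, SE 0.09) and Dcx (0.16, SE 0.11), a microtubule protein of young neurons. Without WT 1, 2 of the 16 dentate genes were above zero and the median was -0.12, and without WT 3 it was 0.13.

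CA1 genes lay mostly below zero in HET, as Fibcd1 did. Of 8 other CA1 genes, 1 fell, 7 were below zero and the median log2 fold change was -0.35, against 0.0047 over all genes. The called gene was Mpped1, a protein with a metallophosphoesterase domain, at 179.7, 206 and 171 CPM in HET and 229, 264 and 236 CPM in WT. Its groups did not overlap, and the log2 fold change was -0.39 (SE 0.08, adjusted p = 0.0461, edgeR quasi-likelihood test). With 1 library left out, 1 CA1 gene was called lower without HET 2, 3 without WT 1 and none in the other 4 fits. Over all genes, 292 were called without WT 1, against 164 with all 6 libraries. Pou3f1, a POU-domain transcription factor, was at 126, 122 and 125 CPM in HET and 126, 173 and 164 CPM in WT (-0.31, adjusted p = 0.197), so WT 1 again lay with the HET libraries. Man1a, a mannosidase of the Golgi, was at -0.16 (SE 0.11). The summed level of the list was 471 to 576 CPM in HET, against 609.9 to 699 CPM in WT.

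CA2 and CA3 genes lay mostly above zero, as Amigo2 did, and none of them passed the test. Among 10 CA2 genes the median log2 fold change was 0.27 and 8 were above zero, and among 10 CA3 genes it was 0.17 and 9 were above zero. Rgs14, a regulator of G-protein signalling that restrains plasticity in CA2, was at 199.5, 159.5 and 227 CPM in HET and 168, 173 and 167 CPM in WT, with overlap (0.21, adjusted p = 0.403). Spock1, a secreted proteoglycan and the most abundant CA3 gene of the list, was at 252, 221 and 249 CPM in HET and 281, 207 and 193 CPM in WT, with overlap (0.09, SE 0.15). Cpne4, a calcium-dependent membrane-binding copine of the CA3 list, was at 163, 133 and 174 CPM in HET and 124, 115 and 127 CPM in WT, without overlap (0.36, SE 0.09, adjusted p = 0.0853, edgeR quasi-likelihood test). Bok, a protein of the BCL-2 family, overlapped at 143, 87.5 and 114 CPM in HET and 90.5, 93.5 and 97.6 CPM in WT (0.29, SE 0.17). The CA2 genes Pcp4 (0.22, SE 0.14) and Necab2 (-0.03, SE 0.22) did not pass. Without HET 2, 2 genes of each list were called higher, and without WT 1 all 10 genes of both lists were above zero. Without WT 3, 6 of the 10 CA3 genes were above zero, and 2 CA2 genes were called higher. Over all genes, 23 to 292 were called with 1 hippocampal library left out, against 164 with all 6.

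**Figure D5:**
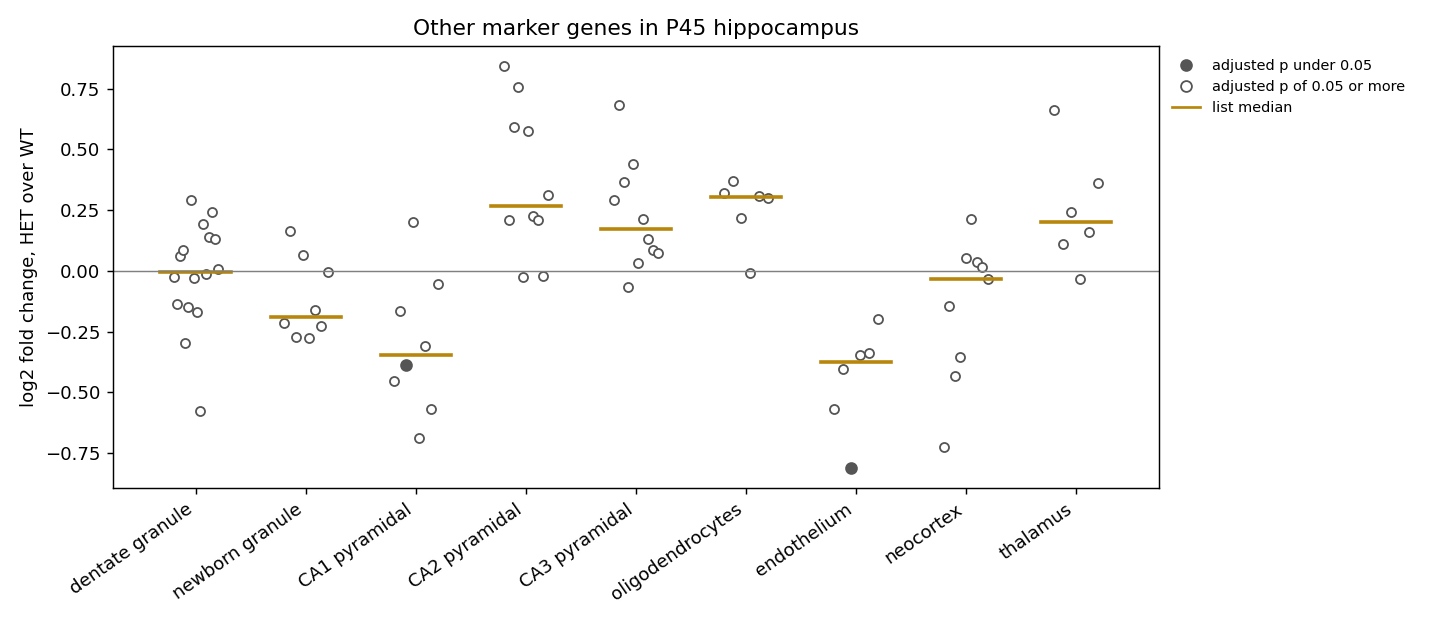
log2 fold change of HET over WT in P45 hippocampus for the genes of 9 marker lists; each point is a gene, filled where called, and gold marks show the list median. The CA1 and endothelial lists lie mostly below zero, the CA2 and CA3 lists mostly above, and the dentate granule cell list is centred at -0.0027.

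Markers of other cells also differed between the libraries that carry the member results. All 6 endothelial genes were below zero in HET, with a median log2 fold change of -0.38 and summed levels of 90.6 to 108 CPM in HET, against 134 to 145 CPM in WT. One of them fell: Flt1, a receptor for vascular endothelial growth factor, was at 22.3, 21.3 and 20.3 CPM in HET and 36.8, 37.5 and 37.9 CPM in WT (-0.81, SE 0.07, adjusted p = 2.19e-04, edgeR quasi-likelihood test). The tight junction gene Cldn5 was at -0.41 (adjusted p = 0.0932) and the transporter gene Slco1a4 at -0.34 (adjusted p = 0.236). Of 6 oligodendrocyte genes 5 were above zero (median 0.30), among them Mbp (0.22, SE 0.16) and Cnp (0.32, SE 0.15), an enzyme of myelin-forming cells, and their summed levels were 6866 to 10095 CPM in HET, against 6419.7 to 8133 CPM in WT.

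Of the 6 thalamic genes tested, 5 were above zero in HET hippocampus, and none passed. The 7 listed genes summed to 96.4 to 110.1 CPM in HET, against 67.8 to 86.7 CPM in WT. Slc17a6, of this list and chosen after its values were seen, was at 2.38, 16.6 and 3.21 CPM in HET and 11.8, 4.45 and 2.73 CPM in WT. The place of the HET 2 sum above all WT sums rests on this gene. Prkcd, a protein kinase C of thalamic neurons, was at 57.0, 37.7 and 66.7 CPM in HET and 20.3, 35.1 and 46.7 CPM in WT, with overlap. Rora was at 0.11 (SE 0.07) and Zic1 at 0.36 (SE 0.17) on the log2 scale. Astrocyte genes summed to 4612 to 4883 CPM in HET, against 4619.8 to 5088 CPM in WT, microglial genes to 291 to 319.6 CPM in HET, against 299.95 to 326 CPM in WT, and interneuron genes to 759 to 795 CPM in HET, against 791 to 841 CPM in WT. Genes of newborn granule cells summed to 125 to 128 CPM in HET, against 124 to 152 CPM in WT. Of 5 red blood cell genes, the 4 globin genes Hba-a1, Hba-a2, Hbb-bs and Hbb-bt were listed at 0 counts in all 18 libraries, embryonic ones included, so they do not tell the samples apart. The part of any of these lists in the C1ql2 and Fibcd1 differences was not tested.

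In E13.5 cortex, none of the 6 members tested passed between genotypes, and C1ql2 was too low to be tested. No gene of 14757 passed either (0% called by edgeR's quasi-likelihood test, 7.89% or 1165 genes at an unadjusted p under 0.05, 11 genes by DESeq2). Zbtb20 was at 3.67, 3.77 and 3.38 CPM in HET cortex and 7.84, 5.10 and 4.48 CPM in WT cortex. All 3 HET libraries were below the WT libraries, and the log2 fold change was -0.67 (SE 0.26, unadjusted p = 0.0308, adjusted p = 0.578). Prox1 was at 10.8, 12.8 and 5.05 CPM in HET and 9.53, 10.2 and 3.32 CPM in WT, with replicate 3 lowest in both groups (0.33, SE 0.46). Wfs1 was at 9.10, 10.7 and 8.01 CPM in HET and 7.54, 8.72 and 7.40 CPM in WT (0.25, SE 0.17), and Amigo2 at 2.20 to 2.81 CPM in HET, against 2.03 to 3.14 CPM in WT (-0.05, SE 0.26). Both overlapped. Dsp had a log2 fold change of -0.48 (SE 0.69). Libraries of the genotypes did not overlap in 11% of all genes tested. Y-linked genes were high in HET 1, HET 3 and WT 1, so sex was not matched between the genotypes in cortex.

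Fibcd1 in cortex was at 1.15, 1.16 and 6.53 CPM in HET and 4.28, 5.75 and 4.30 CPM in WT. HET 1 and HET 2 were below all WT libraries and HET 3 was above them, and the log2 fold change was -0.67 (SE 0.64, adjusted p = 0.675, edgeR quasi-likelihood test). Without HET 3 it was -2.02 (SE 0.29, adjusted p = 0.00121), and 4598 genes were then called. HET 1 and HET 2 also stood apart in other genes. Interneuron genes summed to 17.8, 16.6 and 55.5 CPM in HET cortex and 50.1, 38.0 and 59.4 CPM in WT cortex. Genes of the hippocampal primordium and cortical hem, the medial edge of the embryonic cortex, summed to 2794, 2736 and 2040.5 CPM in HET and 2014, 2333 and 1963 CPM in WT. The median log2 fold change of these 13 genes was 0.41, 12 were above zero, and none was called. The part of these differences in the Fibcd1 level was not tested.

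In E13.5 MGE, again none of the 6 members tested passed, and C1ql2 was too low to be tested. The share called was 0.0479% of 14624 genes, and 4.51% had an unadjusted p under 0.05. Zbtb20 was at 38.4, 22.0 and 28.8 CPM in HET MGE and 20.8, 21.9 and 19.0 CPM in WT MGE. All 3 HET libraries were above the WT libraries, HET 2 by a small margin, and the log2 fold change was 0.52 (SE 0.18, unadjusted p = 0.0174, adjusted p = 0.980, edgeR quasi-likelihood test). Dsp was at 0.416, 0.590 and 0.678 CPM in HET and 1.33, 0.811 and 1.10 CPM in WT, on 15 to 25 counts in HET and 25 to 52 counts in WT. Its HET libraries were all below the WT libraries (-0.96, SE 0.36, adjusted p = 0.980). Libraries that did not overlap were seen in 10.3% of the genes tested in MGE.

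The remaining members overlapped between genotypes in MGE. Prox1, which interneuron precursors of the ventral forebrain also make, was at 38.5, 35.8 and 36.9 CPM in HET and 44.2, 34.5 and 43.7 CPM in WT (-0.15, SE 0.11). Fibcd1 was at 1.92, 0.253 and 0.922 CPM in HET and 1.12, 0.811 and 0.874 CPM in WT (0.12, SE 0.58). Wfs1 lay at 7.999 to 10.1 CPM in HET, against 7.34 to 9.91 CPM in WT, and Amigo2 at 6.26 to 7.91 CPM in HET, against 5.25 to 7.93 CPM in WT. As the HET and WT libraries of MGE differ in Y-linked genes, sex and genotype cannot be told apart in any of these values.

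Cortex and MGE, which share their age, differed in 5 of the 7 members in each genotype. Y-linked genes were high in every HET and no WT library of MGE, and in HET 1, HET 3 and WT 1 of cortex. Sex was therefore not matched between the tissues. The shares of all genes called were 41% in HET (22% higher and 19% lower in cortex) and 44.3% in WT (22.9% higher and 21.4% lower). Dsp and Fibcd1 were higher in cortex. The log2 fold change of cortex over MGE was 2.56 (SE 0.63) in HET and 2.099 (SE 0.56) in WT for Dsp, and 1.57 (SE 0.59) in HET and 2.32 (SE 0.59) in WT for Fibcd1. The HET value of Fibcd1 (adjusted p = 0.0455, edgeR quasi-likelihood test) was 0.16 without cortex HET 3 (adjusted p = 0.820). That call was also lost without MGE HET 2 (adjusted p = 0.136), without MGE HET 3 (0.112), with the replicate block (0.0746), without the filter (0.0881) and by voom (0.0859). The Dsp calls were lost by voom (adjusted p = 0.0566 in HET and 0.0555 in WT). Prox1, Zbtb20 and Amigo2 were lower in cortex, with log2 fold changes of -1.96, -3.04 and -1.41 in HET and -2.41, -1.83 and -1.37 in WT. C1ql2 and Wfs1 did not pass in either genotype. In some other fits C1ql2 passed as lower in cortex. These were WT by DESeq2 (adjusted p = 0.0227), WT without cortex WT 1 (0.0354) and HET without cortex HET 1 (0.00910). C1ql2 held only 0 to 7 counts in cortex libraries and 4 to 11 in MGE libraries. It entered the fit of 18 libraries through its hippocampal counts. These passes rest on values near 0 counts, so no order of the 2 tissues is drawn from them.

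Whether the genotype difference itself differed between tissues was tested with interaction terms over all 18 libraries. In MGE sex and genotype cannot be told apart, so the terms with MGE hold both. None of the 7 members passed in any of the 3 pairs of tissues, where 0.0124% (hippocampus minus cortex), 0.0062% (hippocampus minus MGE) and 0% (cortex minus MGE) of 16125 genes were called by edgeR's quasi-likelihood test. The shares at an unadjusted p under 0.05 were 12.8%, 7.36% and 7.01%, and DESeq2 called 77, 38 and 14 genes. For C1ql2 the difference of log2 fold changes was 1.05 (SE 1.05) between hippocampus and cortex and 1.05 (SE 0.65) between hippocampus and MGE. The embryonic side of these C1ql2 terms rests on 0 to 11 counts per library. They therefore cannot decide whether its hippocampal difference is particular to that tissue. For Fibcd1 the difference was 0.10 (SE 0.64) and -0.66 (SE 0.80), so its hippocampal difference is not shown to be particular to that tissue. Zbtb20, above zero in MGE and below zero in cortex, had a cortex minus MGE difference of -1.21 (SE 0.29, unadjusted p = 0.000613, adjusted p = 0.710). Without cortex HET 3, Zbtb20 passed (-1.19, adjusted p = 0.0402), as did Fibcd1 for cortex minus MGE (-2.17, adjusted p = 0.0448) and for hippocampus minus cortex (1.52, adjusted p = 0.0360). In that fit, 1044 genes in all were called for cortex minus MGE and 2791 for hippocampus minus cortex. The passes are therefore not particular to these members.

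Across the 18 libraries the members' patterns were alike to different degrees. The correlation of log2 CPM was highest between C1ql2 and Wfs1 (Pearson r = 0.98) and lowest between Dsp and Zbtb20 (r = 0.29). These are descriptions without a test, since the points fall into 3 tissues that also differ in age. Among 12598 other genes with a mean of at least 1 log2 CPM (12599 for C1ql2), the pattern most like Prox1 was that of the muscarinic receptor Chrm4 (r = 0.98) and that most like C1ql2 was that of the transporter Slc7a14 (r = 0.99). Nearest to Dsp was tropomyosin Tpm1 (r = 0.99), to Wfs1 the transcription factor Klf9 (r = 0.99), and to Fibcd1 the sodium-calcium exchanger Slc8a1 (r = 0.99). For Zbtb20 it was ephrin Efnb3 (r = 0.98) and for Amigo2 the scaffold protein Akap5 (r = 0.99). Next in order were Specc1 for Prox1, Creg2 for C1ql2, Srd5a3 for Dsp, Nr4a1 for Wfs1, Rab3a for Fibcd1, Thsd7a for Zbtb20 and Lsamp for Amigo2, with r of 0.97 to 0.99. In hippocampus, Slc7a14 averaged 259.6 CPM in HET and 286 CPM in WT, the other order from C1ql2, and Slc8a1 averaged 295 CPM in HET and 297 CPM in WT.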

How the data were processed

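RNA sequencing counts of 18 mouse libraries were analysed, 3 for each of 6 groups of tissue and genotype. The deposited table holds raw counts per gene that the authors made from their reads, with no normalization. Per the submitters' processing notes, FastQC, Trimmomatic, TopHat2 2.1.1, SAMtools and DESeq2 were used with mm10; for the counting program, annotation and strand, the settings were not given in the sources used here. Symbols that look like dates took 0.247 to 0.297% of the counts and were kept. Library totals were 26841671 to 38802765 counts.

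From the counts, TMM-scaled CPM and edgeR 4.0.16 quasi-likelihood tests (R 4.3.3, limma 3.58.1) were computed, with filterByExpr (minimum count 10, minimum total 15), Benjamini-Hochberg adjustment over all genes tested and a threshold of 0.05. Genotype was tested in a separate fit per tissue. Tissue contrasts and interactions came from 1 fit of 18 libraries. Log2 CPM used a prior count of 0.5 for the balance and 2 for likeness between genes. The SE is the size of the log2 fold change over the square root of its F, and 95% intervals reach 1.96 SE to each side. This normal multiplier takes no account of the small number of libraries, so the intervals are narrower than the F test implies. The script was tested on simulated data.

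Alternatives were other scalings (RLE and upper quartile), no filter, DESeq2 1.42.0, limma voom, 1 fit of 18 libraries, a replicate block, a Y-linked covariate and leaving out each library. Same-numbered HET and WT libraries correlated at -0.22 to 0.21 in their deviations from group means, so the numbers were not taken as pairs. The members and the 17 marker lists were chosen with earlier results of these data known. Named were all 7 members, the 3 most abundant genes of a list described, called list genes, and the 2 genes most like each member, except 1 list gene that is not reported here; any other gene is said to be chosen after its values were seen, or serves as a check of tissue, sex or genotype.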

Additional observations from a re-analysis of the deposited data

How the results depend on the processing

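The rise of C1ql2 and the fall of Fibcd1 in HET hippocampus kept their direction under every scaling, filter, tool, block and leave-one-out fit run. Their calls did not: 2 members passed in the main test, 1 with the replicate block (C1ql2 adjusted p = 0.0883), 1 with the Y-linked covariate (C1ql2 adjusted p = 0.0725), 0 in 1 fit of 18 libraries, and 0 to 5 with 1 library left out. The cause was not tested. With Y-linked genes at no more than 0.104 CPM in hippocampus, the covariate cannot show an effect of sex there. Genes called in hippocampus numbered 164, against 11 in 1 fit of 18, 291 without the filter, 445 by DESeq2, 80 with the block, 85 with the covariate and 23 to 292 with 1 library left out. In cortex 0 were called, against 4 in 1 fit of 18, 1 without the filter, 11 by DESeq2, 1 without HET 1 and HET 2 (the lone HET library assumed to vary like the other group) and 0 to 4598 with 1 library left out (members 0 to 1). In MGE 7 were called, against 33 by DESeq2 and 5 to 27 with 1 left out. For interactions, hippocampus minus cortex gave 2 (77 by DESeq2, 1 to 2791 with 1 left out, members 0 to 1), hippocampus minus MGE 1 (2 by upper quartile, 38 by DESeq2, 3 by voom, 1 to 12) and cortex minus MGE 0 (14 by DESeq2, 0 to 1044, members 0 to 2). Members called between cortex and MGE in HET numbered 5, against 3 by voom.

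MGE Fibcd1 (0.12) was -0.29 by voom and -0.14 with the block. Without cortex HET 1 and HET 2, Prox1 (0.33) was -0.60 and Fibcd1 (-0.67) was 0.46. HET cortex over MGE for Wfs1 (0.0046) was -0.0124 by RLE, -0.0112 by DESeq2, -0.0036 without the filter and -0.0039 by voom. The cortex minus MGE term of C1ql2 (0.0064) was -0.0103 by upper quartile, -0.0138 by DESeq2, -0.0111 without the filter and -0.38 by voom. With 1 library left out, ranges crossing zero were -0.22 to 0.072 (Amigo2) and -0.0272 to 0.64 (Prox1) in cortex, and -0.19 to 0.0858 (Amigo2), -0.68 to 0.58 (Fibcd1) and -0.0622 to 0.15 (Wfs1) in MGE. Between tissues they were -0.10 to 0.091 (Wfs1, HET cortex over MGE) and -0.27 to 0.12 (Zbtb20, HET hippocampus over MGE), and the dentate list median ran from -0.12 to 0.13. Hippocampus minus cortex ranged over -0.38 to 5.13 (C1ql2), -0.18 to 1.13 (Dsp) and -0.28 to 1.52 (Fibcd1), and hippocampus minus MGE over -1.11 to 0.13 (Fibcd1). Cortex minus MGE ranged over -0.21 to 0.12 (Amigo2), -4.08 to 1.43 (C1ql2), -0.49 to 0.83 (Dsp) and -2.17 to 0.0314 (Fibcd1). C1ql2 in embryonic tissue, at 0 to 11 counts, is limited by depth.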
